A study of Homo sapiens with 12 samples.

Results

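The mitochondrial ribosomal protein genes were followed in tumor-associated macrophages (TAMs) made from THP-1, a human monocytic leukemia cell line, by treatment with the phorbol ester PMA. They were taken as every protein-coding gene of the deposited table whose symbol is MRPL or MRPS followed by a number and, where present, a letter. This rule found 78 of 58735 genes, of which 49 carry the symbol of the large subunit (MRPL) and 29 that of the small subunit (MRPS), spread over 21 chromosomes. All 78 passed the filter on low counts that left 16046 genes for testing, and their lowest count in any library was 14.

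The mitochondrial ribosome translates the mRNAs of mitochondrial DNA, which encode core subunits of the respiratory chain and of ATP synthase. Its ribosomal RNAs are made inside the organelle, whereas every one of its proteins is encoded in the nucleus, translated in the cytosol and imported. The small subunit holds the mRNA and the decoding site, and the large subunit joins the amino acids and releases the chain through its exit tunnel at the inner membrane. Macrophages are known to change their use of oxidative phosphorylation with their activation state.

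The TAMs were cocultured across a permeable membrane with AsPC-1 pancreatic cancer cells in 4 groups of 3 bulk RNA libraries, 12 in all. The labels give the group codes alone, and the rest comes from the study's description. NC is the control, with cancer cells that carried an empty vector. OE stands for cancer cells with lentiviral overexpression of MMP28, a secreted metalloproteinase, and anti_IL_8 and anti_VEGFA stand for the same overexpressing cells with a neutralizing antibody against IL-8 (MAB208-SP) or VEGFA (MAB293-SP). All groups share the PMA treatment, the lentiviral vector with its puromycin selection, and the cancer line, and no group is named for a control antibody. Since the antibody groups both hold overexpressing cells, their comparison with OE addresses the antibody, and their comparison with NC the overexpression and the antibody together. The labels do not say whether the 3 libraries of a group came from separate cultures, so p-values measure only the spread between these libraries, which may be technical. The 5 comparisons share OE or NC libraries and are not independent of each other.

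Library totals ran from 15852346 to 18701195 counts, at which 3 counts lie between 0.160 and 0.189 CPM, the count relative to the library total after scaling by TMM, edgeR's normalization for composition. Of 9 macrophage markers, ITGAM, CD14, CSF1R, SPI1, PTPRC, TYROBP, FCER1G and LYZ passed the filter, and CD68 had 0 to 5 counts. Against NC, 1 of the 8 tested rose in OE (CD14, log2 fold change 0.80). In anti_IL_8 against NC, 3 rose (CD14 1.07, SPI1 0.68, TYROBP 0.55) and PTPRC fell (−0.73). In anti_VEGFA against NC, 1 rose (CD14 0.88), and 5 of the 8 had negative values. In the same order these calls made up 12.5%, 50% and 12.5% of the 8, against 3.16%, 20.7% and 11% of all genes. The summed level of the 9, of which CD14 makes up the largest share, was 2041 to 2316 CPM in NC, 2198 to 3499 in OE, 2892 to 3586 in anti_IL_8 and 2791 to 2966 in anti_VEGFA. Of 9 epithelial markers, EPCAM had 0 counts in every library and KRT19 at most 4. MUC1, with 28 to 65 counts (1.64 to 3.85 CPM), KRT7, with 4 to 22, and ELF3, with 1 to 15, passed the filter. Of these 3, 1 was called lower in OE against NC, where 3.16% of all genes were called. The 9 together summed to 4.56 to 5.92 CPM in NC, 2.80 to 3.75 in OE, 3.63 to 5.28 in anti_IL_8 and 4.69 to 5.41 in anti_VEGFA. The part of either marker list in the results below was not tested. Libraries OE 3, anti_IL_8 1 and anti_VEGFA 2 had TMM factors of 0.928, 0.935 and 0.942, the other 9 lay above 0.95, and the share of counts from mitochondrial DNA was 12.3%, 11.3% and 17.8% in these libraries against 6.92% to 11.8% in the others.

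The start and end of all 58735 genes in the table equalled those of GENCODE 29 on the human build GRCh38. Another protein-coding gene starts within 1000 bases upstream on the other strand for 17 members (21.8%), against 9.39% of the 13074 protein-coding genes tested. MRPL46 and MRPS11 form the 1 member pair of this kind, with starts 34 bases apart on chromosome 15. Exons of 41 members overlap those of another gene (16 on the same strand, 29 on the opposite strand, some on both), and 34 members have pseudogenes that carry their name, 75 in all. The sources used here do not say whether counting used strand, so reads of such genes and their partners cannot be told apart with certainty.

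RefSeq promoter windows (GRCh38.p14, from 250 bases before to 50 after a start) were matched by symbol for 69 members, with 85 windows. The letters CCGGAAG, part of the site of the ETS family that includes the GABP factor of mitochondrial genes, stood on either strand in 38.8% of member windows and 15.9% of the 15828 windows of genes tested (10.3% of all 35116 windows). AAGATGGCG, part of the YY1 site, stood in 15.3% of member windows against 3.21% of windows of tested genes and 1.75% of all. The core TGCGCA of the NRF1 site stood in 20% against 11.5% and 8.24%. The full NRF1 site showed no such excess. It stood in 1 of the 85 member windows (1.18%), against 1.83% of windows of tested genes and 1.24% of all. The E-box CACGTG stood in 10.6% against 9.19% and 7.26%. TATAAA stood in 3.53% against 6.74% and 11.5%. As described further on, the mRNA of MRPL54 and MRPS34 rose in anti_IL_8 against NC, and that of MRPS10 and MRPS18A fell in anti_VEGFA against NC. The ETS letters thus stood before members called higher in the former comparison and before members called lower in the latter. No single comparison had members with these letters called in both directions. Below are the 100 bases before the RefSeq start of these genes, each 5′ to 3′ on the gene's strand with the ETS letters in capitals.
MRPL54 (chr19:3762582-3762681, plus strand): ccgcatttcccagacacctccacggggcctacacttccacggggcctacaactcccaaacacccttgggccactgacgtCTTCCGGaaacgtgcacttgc
MRPS34 (chr16:1773135-1773234, minus strand): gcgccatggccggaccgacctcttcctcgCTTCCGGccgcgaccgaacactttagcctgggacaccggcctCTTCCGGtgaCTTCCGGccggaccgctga
MRPS10 (chr6:42217862-42217961, minus strand): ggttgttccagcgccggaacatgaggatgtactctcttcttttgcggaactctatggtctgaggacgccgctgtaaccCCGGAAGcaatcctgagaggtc
MRPS18A (chr6:43687792-43687891, minus strand): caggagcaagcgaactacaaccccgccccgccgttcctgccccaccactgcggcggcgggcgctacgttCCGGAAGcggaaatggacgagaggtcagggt

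MRPS34 holds the letters 3 times in this stretch and the others once. Since GENCODE 29 places some starts further upstream, the last 18 bases shown for MRPL54, 21 for MRPS34 and 4 for MRPS10 are exon there. The MRPL54 match crosses into that exon and the last MRPS34 match lies within it. The 30 members with the ETS letters stood at a median of 0.27 (log2 fold change) in anti_IL_8 against NC, and the 39 members with a window but without them also at 0.27. In anti_VEGFA against NC these medians were −0.07 and 0.03. A match is a description of letters and was not tested as a binding site.

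Levels between genes were compared per exon length, as FPKM. The median over the 12 libraries' means was 11.3 FPKM for the large subunit and 7.89 FPKM for the small subunit, against 2.72 for all genes tested. Of the 78 members, 75 lay above 1 FPKM and 40 above 10 FPKM. MRPS6, the small subunit homolog of bacterial S6, was the most abundant at 131 ± 19.1 FPKM (SD over 12 libraries), with 7088 to 14446 counts per library, and took 41.8% of all counts of the small subunit. Next in the small subunit came MRPS34 at 67.0 ± 19.0 FPKM and MRPS10 at 59.3 ± 7.64 FPKM, which overlap within their spread. MRPL18, MRPL14 and MRPL37 led the large subunit at 56.8 ± 10.7, 52.5 ± 11.7 and 43.6 ± 7.15 FPKM, and MRPL18 lay within the spread of MRPL14 but above that of MRPL37. At the low end were MRPL46 at 0.451 ± 0.136, MRPL38 at 0.741 ± 0.202 and MRPL48 at 1.64 ± 0.373 FPKM in the large subunit, and MRPS24 at 0.780 ± 0.320, MRPS28 at 1.13 ± 0.234 and MRPS33 at 1.66 ± 0.236 FPKM in the small subunit. Most proteins of a subunit are present in the ribosome as a single copy, and their mRNA levels per length spanned 126-fold in the large and 167-fold in the small subunit. The length used is that of all annotated exons together, which for MRPL46 is 6432 bases and for MRPL42 16393 bases, so levels of genes with long rare exons are low on this scale.

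**Figure D1:**
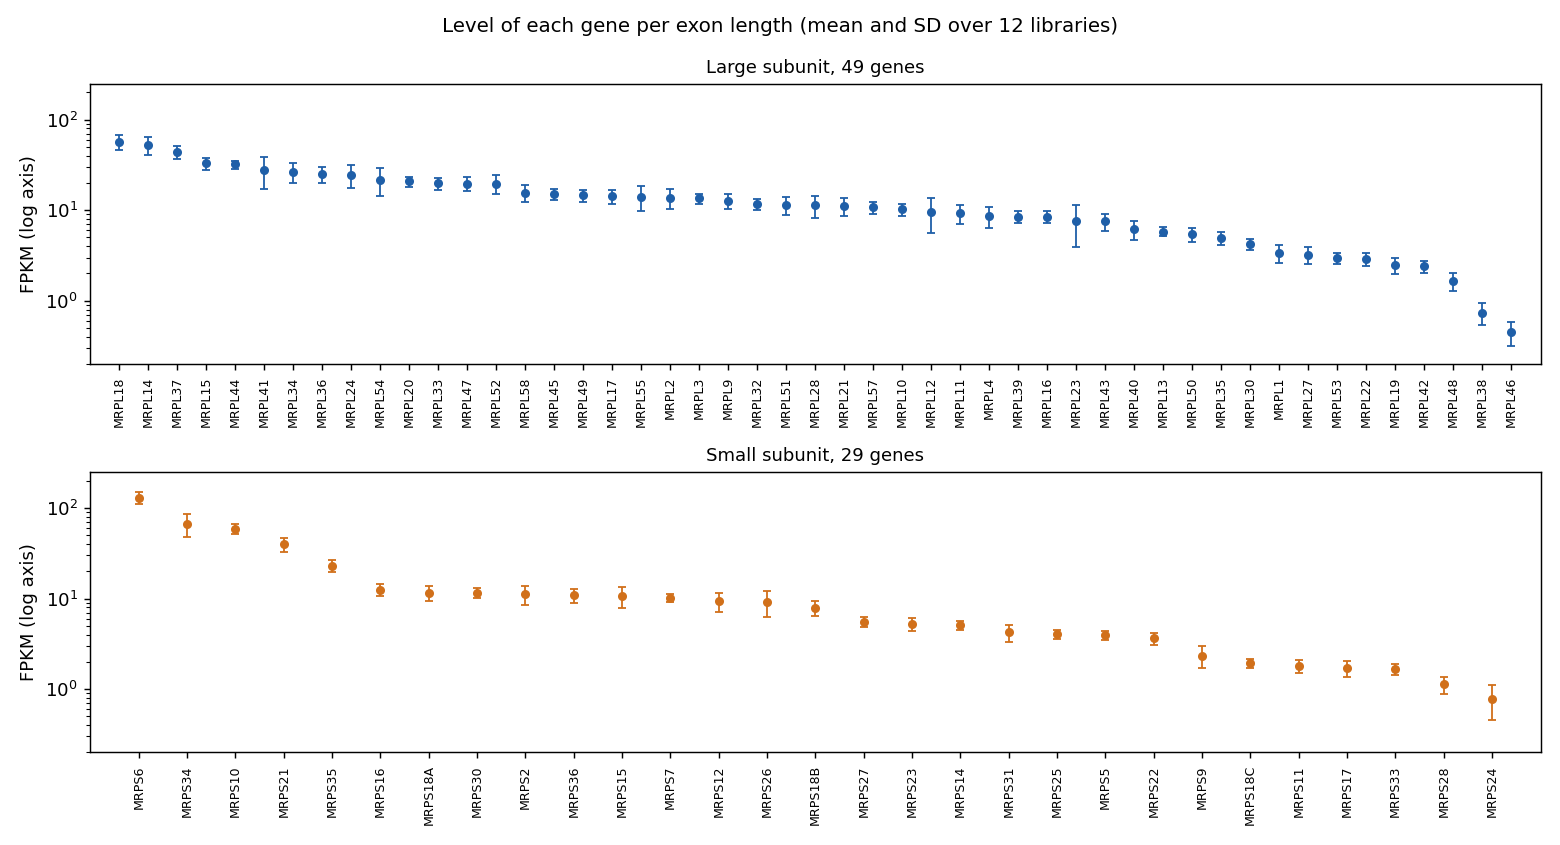
FPKM (log axis) of the 49 large subunit genes (top) and 29 small subunit genes (bottom), each ordered by level, with points for the mean and bars for the SD over 12 libraries. MRPS6 stands highest at 131 FPKM and MRPL46 lowest at 0.451 FPKM.

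Summed over its 49 genes, the large subunit stood at 1357, 1333 and 1246 CPM in NC libraries 1 to 3, and at 1380, 1212 and 1782 CPM in OE. In anti_IL_8 it stood at 1775, 1611 and 1595 CPM, and in anti_VEGFA at 1185, 1627 and 1377 CPM. All anti_IL_8 libraries lay above all NC libraries, whereas the OE and anti_VEGFA libraries spread on either side of the NC level. The highest library of OE, anti_IL_8 and anti_VEGFA was in each case the library with the low TMM factor and the high mitochondrial share named above.

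The 28 small subunit genes other than MRPS6 summed to 769 ± 24.4 CPM in NC, 815 ± 86.8 in OE, 863 ± 27.2 in anti_IL_8 and 731 ± 76.1 in anti_VEGFA (mean ± SD, n = 3). With MRPS6, which held 41.8% of small subunit counts, the sums were 1327 ± 59.6, 1358 ± 114, 1368 ± 60.1 and 1398 ± 162 CPM in this order. The anti_VEGFA mean was thus the lowest without MRPS6 and the highest with it. The ratio of the large subunit sum to the sum without MRPS6 was 1.71 ± 0.03 in NC, 1.78 ± 0.17 in OE, 1.92 ± 0.06 in anti_IL_8 and 1.90 ± 0.10 in anti_VEGFA. In both antibody groups the lowest of these ratios (1.88 and 1.80) lay above the highest in NC (1.73), and the OE libraries ranged from 1.62 to 1.95. For anti_VEGFA this held only without MRPS6. With it, the large subunit sum lay below the small subunit sum in anti_VEGFA 1 (1185 against 1211 CPM) but above it in NC 2 (1333 against 1290 CPM). In bulk RNA, fewer cells of a type and less RNA per cell cannot be told apart.

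**Figure D2:**
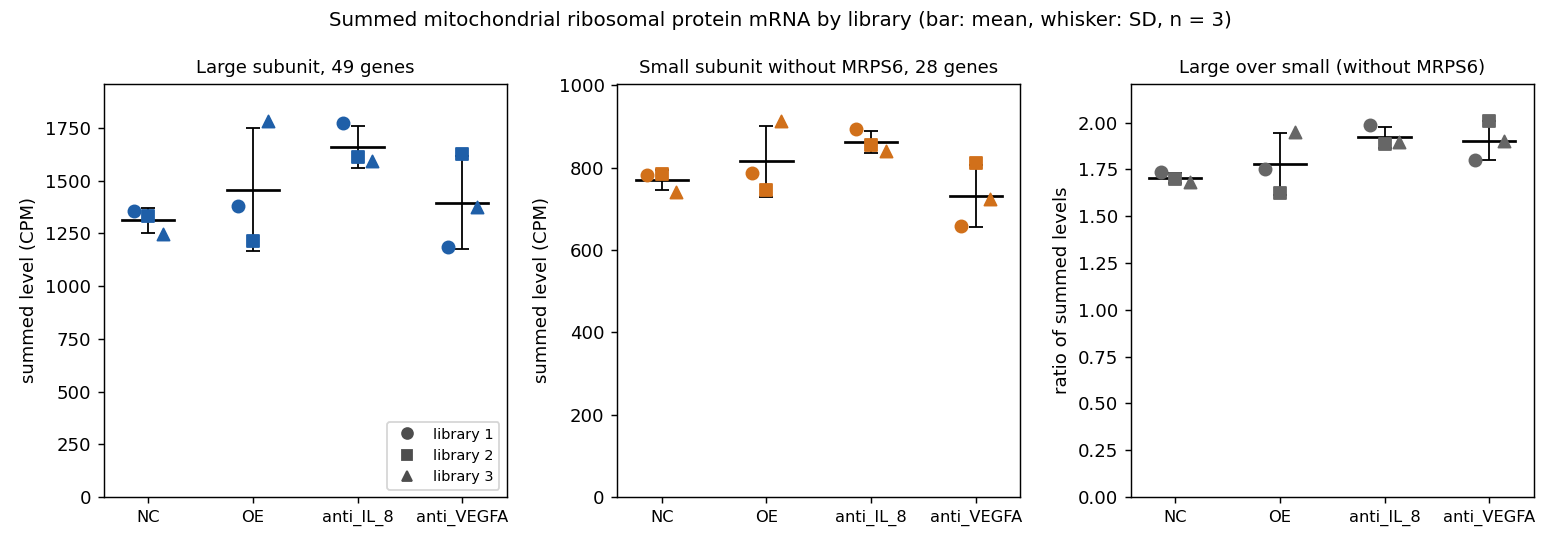
Summed level of large subunit genes (left) and of small subunit genes without MRPS6 (middle), in CPM, and the ratio of the sums (right), by library; lines are group means and whiskers the SD (n = 3), and symbols give the library number. Large subunit sums of anti_IL_8 (1595 to 1775 CPM) lay above those of NC (1246 to 1357 CPM), and OE 3 stood at 1782 CPM.

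OE against NC addresses coculture with MMP28-overexpressing cells. No member passed an adjusted p of 0.05 in edgeR's quasi-likelihood test, against 3.16% of all genes tested. At an unadjusted p under 0.05, 5 members were higher and none lower, where 5.93% of all genes were higher and 8.61% lower, and DESeq2 and limma's voom also called 0 members. The median log2 fold change was 0.13 over the members (0.13 in the large and 0.06 in the small subunit) and 0.02 over all genes. The member with the smallest p was MRPL9, the large subunit homolog of bacterial L9, at 17.5, 19.3 and 20.8 CPM in NC and 24.4, 23.3 and 26.3 CPM in OE. These libraries did not overlap, and the log2 fold change was 0.36 ± 0.13 (SE), with an adjusted p of 0.17 in edgeR's test. MRPL32, MRPL39, MRPS22 and MRPS5 were the other members under the unadjusted threshold, with log2 fold changes of 0.29 to 0.34 and adjusted p-values of 0.282 to 0.339 in edgeR's test. MRPS18A came next in the small subunit at −0.33 ± 0.16. Without OE 3 the median over members was −0.01, so the sign of this small median rests on that library.

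In anti_IL_8 against OE, again 0 members passed the adjusted threshold in edgeR's test, and 0 of all 16046 genes did (0%). Unadjusted, 15 members were higher and 8 lower, which is 19.2% and 10.3% of the members against 13.4% and 15.9% of all genes. The member median was 0.20 (large subunit 0.24, small subunit 0.10), against −0.02 for all genes, and it was 0.05 without OE 2 and 0.35 without OE 3. The smallest adjusted p-values, 0.0627 in edgeR's test, belonged to MRPL19 and MRPS31. MRPL19, a large subunit protein with a bacterial homolog, stood at 12.9, 15.7 and 12.5 CPM in OE and at 9.07, 9.55 and 8.17 CPM in anti_IL_8, with a log2 fold change of −0.62 ± 0.16. MRPS31, a small subunit protein without a bacterial homolog, stood at 10.2, 12.6 and 11.5 CPM against 7.40, 7.06 and 7.07 CPM (−0.67 ± 0.18). Neither gene's groups overlapped. MRPS9 (−0.68 ± 0.22), MRPL4 (0.55 ± 0.19), MRPL14 (0.46 ± 0.16) and MRPS16 (0.38 ± 0.12), the last of them mutated in a combined oxidative phosphorylation deficiency, followed with adjusted p-values of 0.0732 to 0.0819 in edgeR's test.

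The result of this comparison turned on single libraries and on the tool. DESeq2 called 12 members (10 higher, 2 lower), which is 15.4% against 14.1% of all genes, and voom called 0. Without OE 3, edgeR called 28 members (25 higher, 3 lower) and 4125 genes in all. Without anti_VEGFA 2, which belongs to neither group, it called 3 members and 1166 genes in all, with a member median of 0.22. That library enters through the low-count filter, the scaling and the shared estimate of the spread.

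In anti_VEGFA against OE, 0 members passed the adjusted threshold in edgeR's test, against 0.343% of all genes. Unadjusted, 2 members were higher and 16 lower (2.56% and 20.5%), against 10.4% and 8.44% of all genes. The member median was −0.13 (large subunit −0.08, small subunit −0.15), against a median of 0.00 over all genes. Without OE 3 it was 0.02, and without anti_VEGFA 1 it was −0.04. MRPS22, a small subunit protein also mutated in inherited oxidative phosphorylation deficiency, had the smallest p among members. It stood at 21.2, 26.4 and 23.8 CPM in OE and 16.2, 16.1 and 17.3 CPM in anti_VEGFA, without overlap, with a log2 fold change of −0.52 ± 0.13 and an adjusted p of 0.0715 in edgeR's test. MRPS10 (−0.41 ± 0.12), MRPS9 (−0.73 ± 0.22), MRPL19 (−0.45 ± 0.15), MRPL3 (−0.38 ± 0.13) and MRPL39 (−0.44 ± 0.16) followed with adjusted p-values of 0.106 to 0.165 in edgeR's test. DESeq2 called 2 members, both lower (2.56% against 2.67% of all genes), and voom 0. Without OE 3, edgeR called 6 members (3 higher, 3 lower) and 1402 genes in all.

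In anti_IL_8 against NC, 17 members passed the adjusted threshold in edgeR's test, 14 of them higher and 3 lower in anti_IL_8. This is 21.8% of the members, close to the 20.7% of all genes that passed. In the large subunit 10 of 49 rose and 2 fell, and in the small subunit 4 of 29 rose and 1 fell. The median was 0.27 over the members and −0.02 over all genes, with 0.35 in the large and 0.04 in the small subunit. Unadjusted, 26 members were higher and 4 lower (33.3% and 5.13%), against 17.2% and 18.7% of all genes.

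MRPL54, a large subunit protein of the mitochondrial ribosome, rose most, from 14.5, 17.4 and 12.1 CPM in NC to 32.9, 30.7 and 29.3 CPM in anti_IL_8. The fitted log2 fold change was 1.08 ± 0.24, with an adjusted p of 0.00687 in edgeR's test. For this gene all anti_IL_8 libraries lay above all NC libraries.

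MRPL41, another large subunit protein, went from 26.9, 21.7 and 19.1 CPM to 46.3, 46.3 and 44.6 CPM (1.02 ± 0.27). MRPL4, whose bacterial counterpart lines the exit tunnel, went from 28.3, 23.7 and 26.6 CPM to 44.3, 45.02 and 48.1 CPM (0.81 ± 0.19). MRPL9 went from 17.5, 19.3 and 20.8 CPM to 28.4, 28.3 and 29.1 CPM (0.57 ± 0.13) and had the smallest adjusted p among members, 0.00631 in edgeR's test. These 3 genes showed little spread within anti_IL_8.

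MRPS12, the homolog of the bacterial decoding site protein S12, went from 16.9, 16.1 and 14.4 CPM to 27.1, 23.2 and 27.6 CPM (0.72 ± 0.16). MRPS34, a small subunit protein specific to mitochondria, went from 63.5, 54.9 and 50.6 CPM to 99.9, 91.9 and 95.6 CPM (0.77 ± 0.22). MRPS2 (0.64 ± 0.18) and MRPS18B (0.46 ± 0.14) were the other small subunit members that rose. In the large subunit MRPL55, MRPL2, MRPL14, MRPL34, MRPL52 and MRPL37 rose as well, with log2 fold changes from 0.73 down to 0.39, and MRPL2 and MRPL14 among them have bacterial homologs in the core of the subunit.

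The 3 members that fell were MRPL1, the protein of the L1 stalk that moves with the outgoing tRNA, MRPL19 and MRPS35. MRPL1 stood at 9.26, 7.34 and 8.94 CPM in NC and at 5.60, 6.11 and 4.74 CPM in anti_IL_8 (−0.63 ± 0.18). MRPL19 stood at 12.3, 14.2 and 13.0 CPM against 9.07, 9.55 and 8.17 CPM (−0.56 ± 0.16). MRPS35, a small subunit protein specific to mitochondria, stood at 49.5, 58.0 and 51.3 CPM against 44.2, 40.6 and 38.9 CPM (−0.36 ± 0.12). In each the groups did not overlap.

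Across 26 alternatives of the processing, 4 of the 17 members stayed under an adjusted p of 0.05 in each: MRPL9, MRPL54, MRPL4 and MRPS12. MRPL55 and MRPS35 lost it in 12 of the 26. The number of members called fell to 11 without NC 1, to 6 without NC 2, to 4 without NC 3, to 6 without anti_IL_8 1 and to 7 without anti_IL_8 3. In the same order, all genes called fell from 3317 to 1835, 1340, 1394, 1312 and 1361, so the drop was not particular to members.

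**Figure D3:**
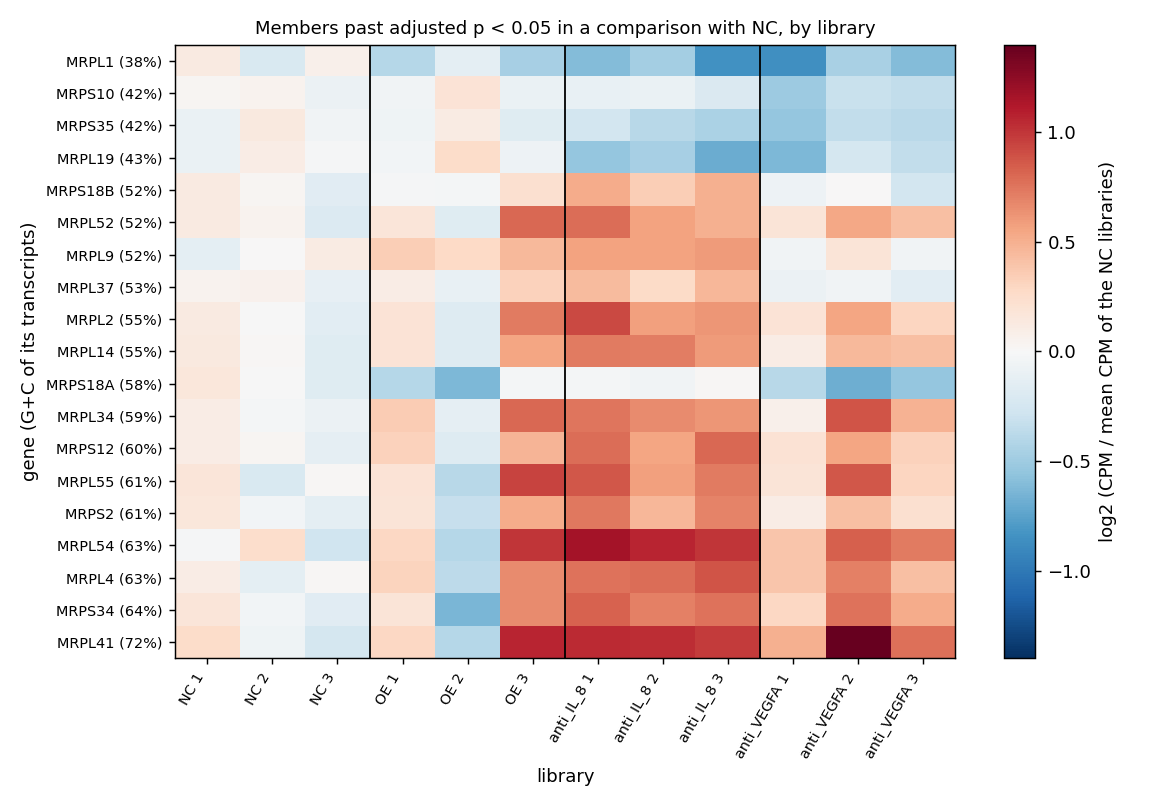
Level of the 19 members called in a comparison with NC in each of the 12 libraries, as log2 of CPM over the mean CPM of NC (color scale), with genes ordered by the G+C content of their transcripts from 38% (top) to 72% (bottom). MRPL54 and MRPL41 stand high in all 3 anti_IL_8 libraries and in OE 3, and MRPL1 stands low in both antibody groups.

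In anti_VEGFA against NC, 5 members passed the adjusted threshold in edgeR's test (6.41%, against 11% of all genes). MRPL41 rose, and MRPL1, MRPS18A, MRPS10 and MRPS35 fell. Unadjusted, 7 members were higher and 8 lower (8.97% and 10.3%), against 14.3% and 12.6% of all genes, and the median was −0.06 over the members (large subunit 0.06, small subunit −0.12) and 0.00 over all genes. Without anti_VEGFA 1 the member median was 0.01 and without anti_VEGFA 2 it was −0.13.

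MRPL41 stood at 31.8, 59.6 and 38.6 CPM in anti_VEGFA, all above its NC libraries given above, with a log2 fold change of 0.94 ± 0.27 and an adjusted p of 0.0342 in edgeR's test. Its highest value was in anti_VEGFA 2. MRPL1 stood at 4.69, 6.22 and 5.60 CPM (−0.63 ± 0.18) and MRPS35 at 36.4, 41.7 and 40.8 CPM (−0.42 ± 0.12), all below their NC libraries. MRPS10, the small subunit homolog of bacterial S10, stood at 139, 142 and 130 CPM in NC and 96.4, 110 and 108 CPM in anti_VEGFA (−0.38 ± 0.12).

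MRPS18A, which carries a small subunit symbol but sits in the large subunit of solved mitochondrial ribosome structures, stood at 19.5, 17.3 and 15.5 CPM in NC and 13.3, 10.9 and 12.0 CPM in anti_VEGFA. Its log2 fold change was −0.53 ± 0.16, with an adjusted p of 0.0422 in edgeR's test. In anti_IL_8 it stood at 17.1, 16.8 and 17.6 CPM, within the NC range (−0.02 ± 0.16 against NC). Whether its changes in the antibody groups differ from each other was not tested. MRPS24, at the lowest level of the small subunit, had the largest fitted value at 0.99 ± 0.36, with an adjusted p of 0.0868 in edgeR's test, from 1.07 to 2.18 CPM in NC and 2.41 to 3.89 CPM in anti_VEGFA, and 23.2% of its exon bases are shared with the readthrough gene URGCP-MRPS24.

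No member was called in all alternatives of this comparison, and leaving out any library moved the count by over 1.5 times. It was 0 without NC 1, NC 2, NC 3 or anti_VEGFA 3, 1 without anti_IL_8 1 or anti_VEGFA 2, 2 without OE 1, anti_IL_8 2 or anti_IL_8 3, 3 without anti_VEGFA 1, and 9 without OE 2 or OE 3. All genes called were 1760 in the main fit and 662 to 1105 without NC 1, NC 2, NC 3 or anti_VEGFA 3. They were 2582 without OE 2, 2457 without OE 3 and 1318 to 1671 without any other library.

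The 3 paralogs of the bacterial protein S18 did not share 1 pattern. MRPS18B rose in anti_IL_8 against NC, at 15.04, 14.1 and 12.4 CPM in NC and 19.8, 17.6 and 19.6 CPM in anti_IL_8, and its value in anti_VEGFA against NC was −0.11 ± 0.14. MRPS18C was within 0.24 of 0 on the log2 scale in all 5 comparisons and passed in none. Among members with special roles, MRPL12, a protein of the stalk that recruits translation factors, had fitted values of 0.88 ± 0.35 in anti_IL_8 against NC and 0.76 ± 0.35 in anti_IL_8 against OE, with adjusted p-values of 0.0809 and 0.157 in edgeR's test, and 68.2% of its exon bases are shared with AC139530.2 on the same strand.

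MRPL44, which has an RNase III fold, and MRPL45, which holds the exit tunnel to the inner membrane, passed in no comparison. MRPL44 was at −0.32 ± 0.12 and MRPL45 at −0.25 ± 0.13 in anti_VEGFA against NC, with adjusted p-values of 0.103 and 0.215 in edgeR's test, and in anti_IL_8 against NC they were at −0.18 ± 0.12 and 0.23 ± 0.13. MRPL58, the peptidyl-tRNA hydrolase ICT1 built into the large subunit, was at 0.47 ± 0.18 in anti_IL_8 against NC (adjusted p = 0.0683 in edgeR's test). MRPS30, a second protein of small subunit symbol in the large subunit, was between −0.29 and 0.17 in all 5 comparisons. MRPS36, also known as a part of the 2-oxoglutarate dehydrogenase complex, was between −0.40 and 0.16. None of the last 5 genes passed the test.

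The fold changes of the members went with the share of G and C in their transcripts, which ranged from 35.0% (MRPL50) to 71.9% (MRPL41). Spearman's rho across the 78 members, which share libraries and are not independent, was 0.80 in anti_IL_8 against OE, 0.72 in anti_VEGFA against OE, 0.76 in anti_IL_8 against NC, 0.67 in anti_VEGFA against NC and 0.24 in OE against NC. Across the 16040 tested genes with a value it was 0.71, 0.56, 0.51, 0.38 and −0.09. With gene length, rho across the members lay between −0.24 and −0.08.

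Of the 14 members that rose in anti_IL_8 against NC, 10 had 55% G+C or more and 4 had 45% to 55%, and the 3 that fell had under 45%. The 18 members of 55% or more had a median of 0.70 in this comparison, the 32 in the middle class 0.30 and the 28 under 45% −0.04. Over all genes of the same classes the medians were 0.33, 0.01 and −0.29. The members thus lay above all genes of like G+C in each class here. In anti_VEGFA against NC the member medians were 0.39, −0.04 and −0.21, against 0.27, −0.03 and −0.15 over all genes, and MRPS18A at 58.1% was the 1 member of the high class that fell.

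The central 90 coding bases of MRPL54, MRPL4 and MRPS34, which rose in anti_IL_8 against NC, and of MRPL1, MRPL19 and MRPS35, which fell, are given to show this difference in the sequences themselves. They come from the principal GENCODE 29 transcript of each gene (GRCh38), are written 5′ to 3′ with G and C in capitals, and are centred on the coding sequence.
MRPL54 (gene at chr19:3762664-3768575, plus strand, coding bases 163 to 252): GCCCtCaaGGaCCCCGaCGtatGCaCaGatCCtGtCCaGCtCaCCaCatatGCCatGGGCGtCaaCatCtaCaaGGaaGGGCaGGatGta
MRPL4 (gene at chr19:10251901-10260045, plus strand, coding bases 422 to 511): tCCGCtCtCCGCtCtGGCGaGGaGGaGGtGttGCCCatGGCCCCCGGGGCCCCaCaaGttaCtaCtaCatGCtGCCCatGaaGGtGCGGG
MRPS34 (gene at chr16:1771890-1773155, minus strand, coding bases 283 to 372): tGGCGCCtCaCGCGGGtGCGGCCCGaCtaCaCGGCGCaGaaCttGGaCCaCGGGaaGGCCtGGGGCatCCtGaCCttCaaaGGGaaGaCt
MRPL1 (gene at chr4:77862520-77952790, plus strand, coding bases 443 to 532): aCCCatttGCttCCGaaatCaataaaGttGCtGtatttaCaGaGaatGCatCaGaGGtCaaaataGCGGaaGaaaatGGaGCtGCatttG
MRPL19 (gene at chr2:75646783-75690851, plus strand, coding bases 394 to 483): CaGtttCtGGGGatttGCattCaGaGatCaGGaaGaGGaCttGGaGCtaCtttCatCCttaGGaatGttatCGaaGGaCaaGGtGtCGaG
MRPS35 (gene at chr12:27710773-27756295, plus strand, coding bases 440 to 529): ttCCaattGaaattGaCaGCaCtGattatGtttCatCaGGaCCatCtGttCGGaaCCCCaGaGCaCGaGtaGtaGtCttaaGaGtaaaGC

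In these stretches G and C made up 55.6%, 65.6% and 65.6% of the bases of MRPL54, MRPL4 and MRPS34, and 38.9%, 45.6% and 42.2% of those of MRPL1, MRPL19 and MRPS35. Over their whole coding sequences the shares were 60.1%, 65.2% and 67.0% for the first 3 genes and 38.4%, 47.2% and 43.3% for the others.

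**Figure D4:**
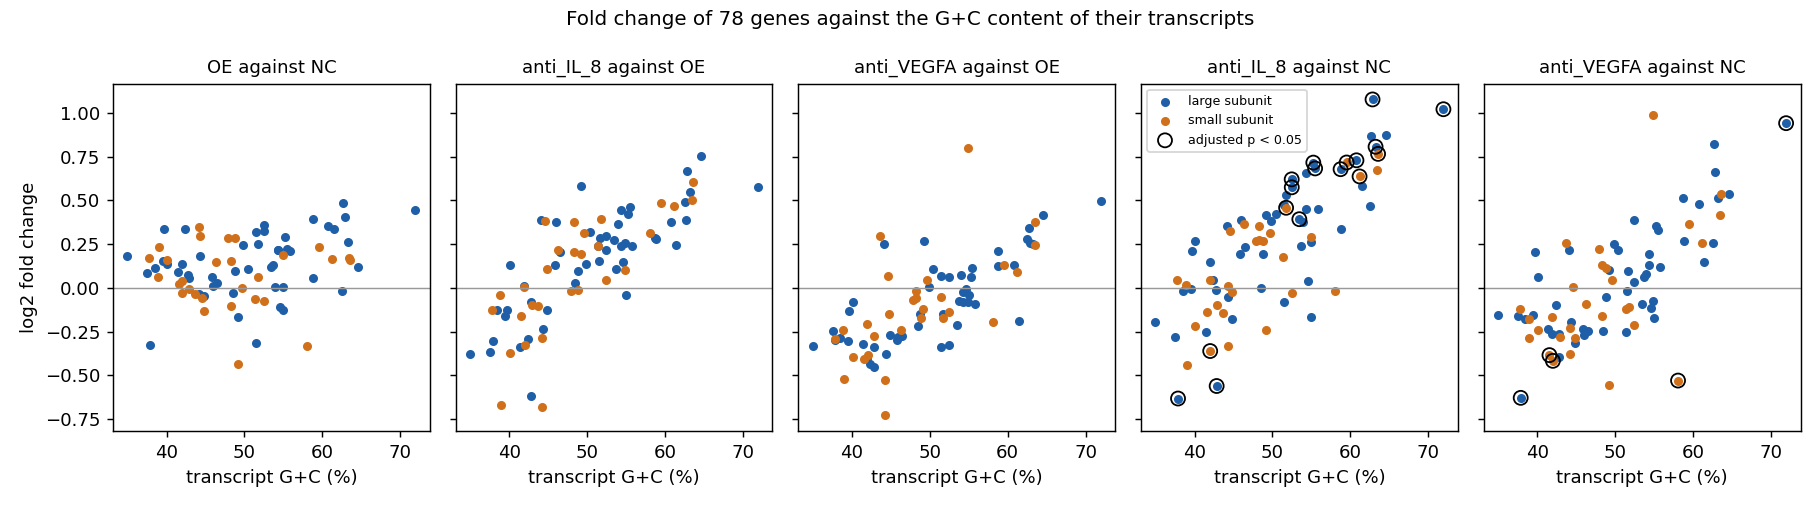
Log2 fold change of the 78 members (blue, large subunit; orange, small subunit) against the G+C percent of their transcripts in the 5 comparisons, with a black ring around members under an adjusted p of 0.05. The points climb from left to right in the 4 comparisons of an antibody group (rho 0.67 to 0.80) and less so in OE against NC (rho 0.24).

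The libraries themselves differed in this relation. Across members, rho of a library's deviation from the mean of all libraries with G+C was between −0.67 and −0.41 in NC, at −0.49, −0.80 and 0.34 in OE, between 0.64 and 0.73 in anti_IL_8 and between 0.30 and 0.45 in anti_VEGFA. It was thus negative in all NC libraries and positive in all antibody libraries, while OE 3 stood apart from the other OE libraries. Over all genes tested it was −0.38 to −0.18 in NC, −0.36, −0.70 and 0.06 in OE, 0.32 to 0.59 in anti_IL_8 and 0.14 to 0.31 in anti_VEGFA. Whether it arose in the cells or in the making of the libraries was not tested, and since it follows the groups NC and anti_IL_8 the sources cannot be told apart there.

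With an offset for G+C and gene length, chosen after the data had been seen, edgeR called 11 members in anti_IL_8 against NC, all higher, against 12.9% of all genes. Of the 14 members that rose without it, MRPL54, MRPL41, MRPL4, MRPS12, MRPL2, MRPL14, MRPL52 and MRPL9 remained called, with MRPL54 at 0.62 and MRPL9 at 0.38. MRPS23, MRPL32 and MRPL30 joined them, and MRPL1, MRPL19 and MRPS35 were no longer called. The median over members was 0.21 with the offset and 0.01 over all genes.

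In anti_VEGFA against NC the offset left 3 members (11.1% of all genes). MRPS18A was at −0.74 ± 0.13, with an adjusted p of 0.00131 in edgeR's test, the lowest over its 26 alternatives, of which the highest was 0.168. MRPL1 was at −0.53 (adjusted p = 0.0297 in edgeR's test, with a range of 0.0164 to 0.125 over its alternatives), and MRPS6 passed at 0.42 ± 0.12. MRPS6 stood at 613, 505 and 554 CPM in NC and 552, 677 and 770 CPM in anti_VEGFA, overlapping, and without the offset its value was 0.26 ± 0.14 and did not pass. In the other comparisons the offset left 0 members called in edgeR's test: OE against NC (5.85% of all genes), anti_IL_8 against OE (0.00623%) and anti_VEGFA against OE (0.305%). At an unadjusted p under 0.05 it gave 14, 15 and 10 members there, or 17.9%, 19.2% and 12.8%, against 19.4%, 9.25% and 11.6% of all genes.

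**Figure D5:**
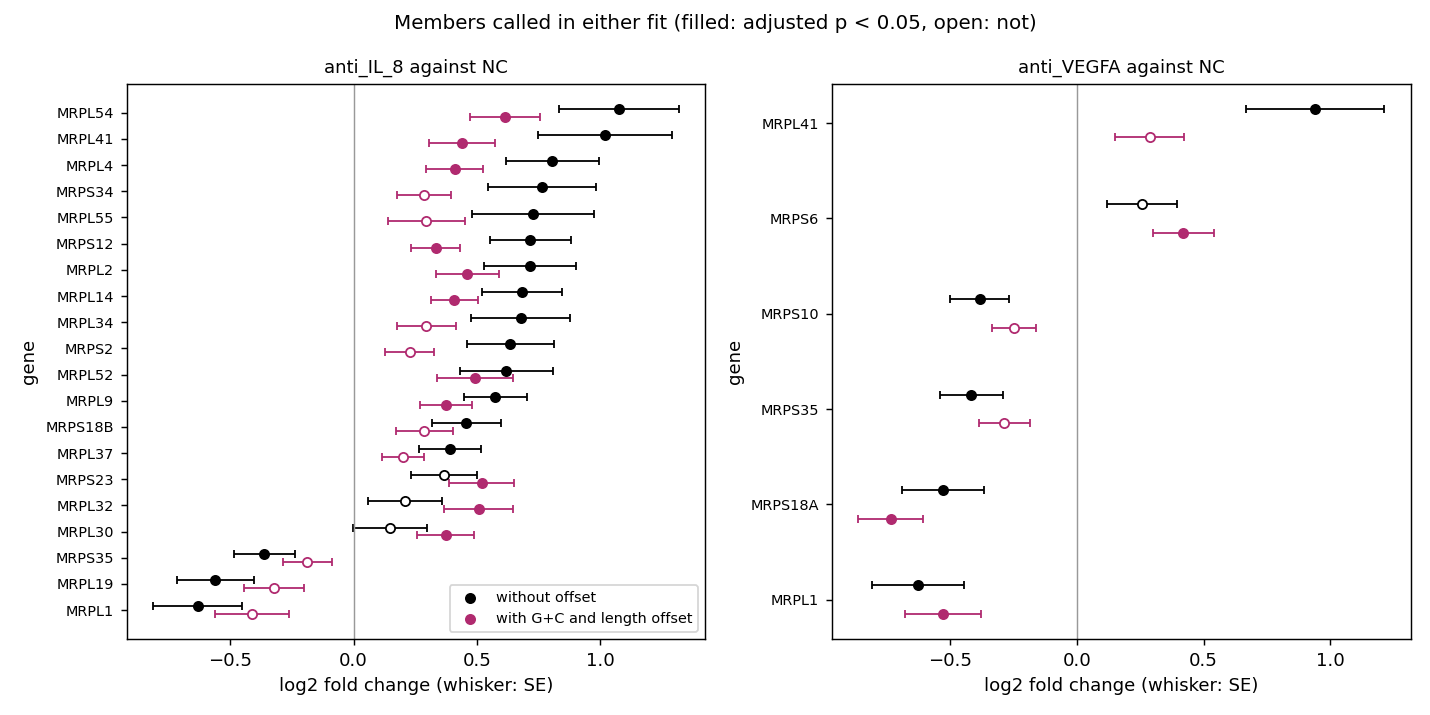
Log2 fold change (points) and SE (whiskers) of the members called with or without the G+C and length offset, in anti_IL_8 against NC (left) and anti_VEGFA against NC (right); filled points passed an adjusted p of 0.05 and open points did not. The offset brings MRPL54 from 1.08 to 0.62 on the left and MRPS18A from −0.53 to −0.74 on the right.

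Transcripts of large subunit members had a median G+C of 51.5% and those of small subunit members 47.9%. The median log2 fold change of the large minus that of the small subunit was 0.31 in anti_IL_8 against NC, 0.18 in anti_VEGFA against NC, 0.13 in anti_IL_8 against OE, and 0.07 in both OE against NC and anti_VEGFA against OE, where the same difference between replicates of a group had an SD of 0.09. With the offset it was 0.05, 0.03, −0.04, 0.07 and −0.03. The gap in anti_IL_8 against NC was 0.16 when MRPS30 and MRPS18A were counted with the large subunit, where their proteins lie.

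Of the 19 members called in any comparison, 10 share no exon with another gene, among them MRPL54, MRPL41, MRPS34, MRPL1 and MRPS10. Each of the other 9 has a partner on the opposite strand, and MRPL9 also shares 118 bases with AL589765.4 on its own strand. The partner is on the opposite strand alone with MRPL4 (up to 560 bases shared with a gene known by its clone name), MRPS18A (604 bases with RSPH9) and MRPS12 (349 bases with SARS2).

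Other genes of mitochondrial translation were taken from lists with the same fit, whose counts are read against the 3.16% of all genes called in OE against NC, 20.7% in anti_IL_8 against NC and 11% in anti_VEGFA against NC. Of the 5 further ribosomal proteins without an MRP symbol (DAP3, CHCHD1, AURKAIP1, PTCD3 and GADD45GIP1), 0 passed the adjusted threshold in edgeR's test in any comparison. At an unadjusted p under 0.05, 3 were higher in anti_IL_8 against NC, where 17.2% of all genes were higher. By the same threshold 1 was higher in OE against NC (5.93% of all genes) and 1 in anti_VEGFA against NC (14.3%). Lower by it were 1 in anti_IL_8 against OE (15.9% of all genes) and 1 in anti_VEGFA against OE (8.44%). Of 13 translation factors, TUFM, the elongation factor that brings aminoacyl-tRNA, rose in anti_IL_8 against NC (0.57 ± 0.19, from a mean of 121 to 179 CPM), and none passed elsewhere. With the G+C and length offset TUFM was at 0.21 and did not pass. Of 26 assembly and rRNA modification genes, 4 rose and 1 fell in anti_IL_8 against NC (19.2%, near the share of all genes) and none passed elsewhere. Those that rose were the RNA helicase DHX30 (0.58 ± 0.13), MPV17L2 (0.55 ± 0.16), NGRN (0.41 ± 0.13) and the GTPase MTG2 (0.43 ± 0.14), and GTPBP10, another GTPase of large subunit assembly, fell (−0.47 ± 0.16). With the offset DHX30 (0.38) and NGRN (0.55) passed and MPV17L2, MTG2 and GTPBP10 did not.

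Among 17 genes of mitochondrial transcription and RNA processing, PNPT1, a 3′ exonuclease of mitochondrial RNA that is induced by interferon, fell in each comparison with NC. Its mean went from 144 CPM in NC to 28.5 in OE, 19.4 in anti_IL_8 and 28.6 in anti_VEGFA, with log2 fold changes of −2.33 ± 0.15, −2.89 ± 0.16 and −2.33 ± 0.15. POLRMT, the mitochondrial RNA polymerase, rose in anti_IL_8 (0.74 ± 0.15) and anti_VEGFA (0.70 ± 0.15) against NC, as did TBRG4 (0.63 ± 0.12 and 0.43 ± 0.12), a protein needed for maturation of mitochondrial mRNA. FASTK (0.56 ± 0.16) and HSD17B10 (0.63 ± 0.19), a part of mitochondrial RNase P, rose in anti_IL_8 against NC, where TFAM, which packs mitochondrial DNA, fell (−0.47 ± 0.16). The calls made up 6 of 17 in anti_IL_8 against NC (35.3%) and 3 of 17 in anti_VEGFA against NC (17.6%). With the offset PNPT1 passed in all 3 comparisons and POLRMT in both antibody groups, TBRG4 in anti_IL_8 alone (0.39), and FASTK, HSD17B10 and TFAM did not pass.

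Of 8 tested regulators of nuclear genes for mitochondria, ESRRA rose in anti_IL_8 (0.67 ± 0.16) and anti_VEGFA (0.55 ± 0.16) against NC, and GABPB1, a subunit of GABP, fell in anti_IL_8 against NC (−0.49 ± 0.15). PPRC1 (0.47 ± 0.14) and NRF1 (0.45 ± 0.13), an activator of nuclear genes for mitochondria, rose in anti_VEGFA against NC. These are 2 of 8 and 3 of 8 genes. With the offset ESRRA (0.22 and 0.18) and GABPB1 (−0.23) did not pass, and PPRC1 and NRF1 did. Of the mRNAs made from mitochondrial DNA, the substrates of this ribosome, all 13 had positive values in each comparison with NC, with medians of 0.41 in OE, 0.35 in anti_IL_8 and 0.55 in anti_VEGFA. Their summed level was 60249 to 81000 CPM in NC. It was 67147, 95538.5 and 110389 CPM in OE and 103409, 76350 and 80278 CPM in anti_IL_8. OE 1, anti_IL_8 2 and anti_IL_8 3 thus lay within the NC range. In anti_VEGFA it was 55205, 158339 and 85589 CPM, so that anti_VEGFA 1 lay below every NC library and anti_VEGFA 2 far above. The adjusted threshold was passed by MT-ATP8 alone, in anti_IL_8 against NC (0.94 ± 0.27). Against OE, 3 of the 13 were positive in anti_IL_8 and 11 in anti_VEGFA, and 0 passed in edgeR's test, also at an unadjusted p under 0.05.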

How the data were processed

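RNA-seq libraries of TAMs were analysed from the deposited table. Per the labels' processing notes the authors used HISAT2 2.0.5 and featureCounts 1.5.0-p3 to make the read counts per gene. The FPKM values were also deposited by the authors, and each equals the count divided by the exon length of the gene and 1 library size per library. The authors' comparison columns (group means, log2 fold changes and p-values) were not used. Counts were analysed in R 4.3.3 with edgeR 4.0.16 (TMM, filterByExpr over the 4 groups, quasi-likelihood test, Benjamini-Hochberg adjustment over 16046 genes, prior count 2), which replaces the limma test of the study's methods because counts were at hand. SE is the size of the log2 fold change over the square root of F. Members and lists were chosen with earlier results of these data known. Named members were those past the adjusted threshold, the 3 smallest p-values per subunit and comparison, the 3 highest and lowest levels per subunit and a list by role, and members named outside this rule (such as MRPS23, MRPL30 and the remaining called members of the comparisons with NC) were chosen after their values were seen. G+C content came from all GENCODE 29 transcripts of a gene, and its offset was a lowess trend of span 0.3 per library. Alternatives included DESeq2 1.42.0, limma 3.58.1 (voom, and log2 FPKM with pseudocounts of 1 and 0.1), other filters and scalings, the replicate block and each library left out. Methods were tested on simulated data. Sequences were read from GENCODE 29 and RefSeq tables, and figures were drawn with Python 3.11.15, pandas 2.3.3 and matplotlib 3.10.9.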

Additional observations from a re-analysis of the deposited data

How the results depend on the processing

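Of the counts of members called, 97 of 135 alternative values stayed within 1.5 times the main count. All 130 medians over members moved by less than the spread between replicates (SD 0.17). That spread exceeds the size of the main medians in OE against NC (0.13), anti_VEGFA against OE (−0.13) and anti_VEGFA against NC (−0.06). Medians there could thus change sign within it. Of the values of large minus small subunit, 123 of 135 moved by less than their spread. Among 1066 values of named members 130 lost the adjusted threshold, 36 gained it and 0 changed sign. At an unadjusted p under 0.05 the members called in edgeR's test were 5 (OE against NC), 23 (anti_IL_8 against OE), 18 (anti_VEGFA against OE), 30 (anti_IL_8 against NC) and 15 (anti_VEGFA against NC). In the same order, all genes called were 2332, 4700, 3019, 5761 and 4325. Below, the number of all genes called stands in brackets after each count of members. In anti_IL_8 against OE, DESeq2 gave 12 (2259), no filter on low counts 8 (1438) and a length offset 3 (845). Omission of OE 3, anti_IL_8 1 and anti_VEGFA 2 together gave 26 (3427). That omission gave 1 (606) in OE against NC and 4 (950) in anti_VEGFA against OE, where DESeq2 gave 2 (429). Fits of the 2 groups alone gave 39 (6039) in anti_IL_8 against NC and 8 (2101) in anti_VEGFA against NC, where no filter gave 9 (2112). The offset for G+C and length gave 11 (2072) and 3 (1779) in these. Leaving out 1 library gave 0 to 28 (0 to 4125) in anti_IL_8 against OE and 0 to 6 (8 to 1402) in anti_VEGFA against OE. It gave 4 to 25 (1312 to 4309) in anti_IL_8 against NC and 0 to 9 (662 to 2582) in anti_VEGFA against NC.

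The large minus small subunit value in anti_IL_8 against NC was 0.19 with the length offset, 0.20 with FPKM and a pseudocount of 1, 0.20 without the 3 libraries, 0.16 with MRPS30 and MRPS18A as large subunit, 0.048 with the G+C and length offset, and 0.19 to 0.36 with 1 library left out. With the G+C and length offset it was −0.036 in anti_IL_8 against OE, −0.034 in anti_VEGFA against OE and 0.031 in anti_VEGFA against NC, and leaving out 1 library gave 0.064 to 0.26 and −0.096 to 0.13 in the comparisons with OE. Library totals in place of TMM moved the median of all genes by −0.08 to 0.01. They gave 12 higher and 4 lower members in anti_IL_8 against NC, with 2939 genes called in all. The cause of these shifts was not tested. Deviations of same-numbered libraries had correlations of −0.16 to 0.24. With 3 libraries per group, this cannot show whether a number stands for a shared batch, and the main fit treated libraries as unpaired. With the numbers as a replicate block 2 members were called in anti_IL_8 against OE, both lower, and 795 genes in all. At this depth the fitted SE of MRPS24 or MRPL46, with 14 to 76 counts per library, was over 0.33, so changes of that size in these genes were not detectable.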
